A study of Mus musculus with 12 samples.

Results

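The zinc transporters and metallothioneins of sorted mouse microglia were followed across sham surgery, stroke and loss of HDAC3. The 10 genes were found by symbol among 55401 counted identifiers. They were the metallothioneins *Mt1* and *Mt2*, the exporters *Slc30a1* and *Slc30a5*, and the importers *Slc39a1*, *Slc39a4*, *Slc39a6*, *Slc39a7*, *Slc39a10* and *Slc39a14*. All 10 were among the 16451 genes that passed the filter on low counts. *Slc39a4* was selected on its fold change between miKO and WT, being among the genes most raised in miKO, so that its differences between groups are given as values without a test. The other 9 genes entered as its relatives, and they were listed with earlier results of these data known.

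Bulk RNA-seq was made from CD45int CD11b+ microglia in 4 groups of 3 libraries, each library pooling cells from 3 to 4 hemispheres. All mice were male and carried floxed *Hdac3* alleles. WT mice (CX3CR1wt/wt:HDAC3loxp/loxp) had no Cre, whereas miKO mice (CX3CR1CreER/wt:HDAC3loxp/loxp) had CreER in 1 *Cx3cr1* allele, so that *Hdac3* loss cannot be told apart from the CreER allele itself. Tamoxifen was given for 5 days at an age of 6 to 8 weeks, and whether WT mice also received it is not given in the sources used here. Sham surgery or transient focal cerebral ischemia (tFCI, an occlusion of the middle cerebral artery for 60 min that models ischemic stroke) followed at least a month later. Cells were taken on day 3 after either surgery. The sham groups are named WT-Sham and miKO-Sham, and the stroke groups WT-tFCI and miKO-tFCI.

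Zinc is held by enzymes, receptors and transcription factors, and free zinc in the cytosol is kept very low. ZIP proteins (the Slc39a family) carry zinc into the cytosol from outside the cell or from organelles. ZnT proteins (the Slc30a family) carry it the opposite way. Metallothioneins are small cysteine-rich proteins that bind zinc and copper. The transcription factor MTF1 senses free zinc and switches on *Mt1*, *Mt2* and the exporter gene *Slc30a1* through metal response elements in their promoters. In the brain, metallothioneins are best known from astrocytes and rise after injury.

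Each library held between 7697864 and 9452222 counts on genes, and levels are given as CPM (counts scaled to a common library size, by TMM). Tests between groups are those of edgeR, with the standard error (SE) of the log2 fold change and a p-value adjusted over all genes tested by the Benjamini-Hochberg method (BH), and a gene is called at an adjusted p below 0.05 and an absolute log2 fold change above 0.58. *Hdac3* was lower in both miKO groups, with log2 fold changes of -0.81 in miKO-Sham vs. WT-Sham and -0.71 in miKO-tFCI vs. WT-tFCI (BH-adjusted p = 0.00281 and 0.0127 in edgeR). The 11 microglia markers (*P2ry12*, *Tmem119* and others) were detected in every library, with summed levels from 10520 CPM in a miKO-tFCI library to 36930 CPM in a WT-Sham library. Of these 11, 7 were called lower after stroke in WT and 9 in miKO, 3 were called lower and 1 higher in miKO-Sham vs. WT-Sham, and 4 lower in miKO-tFCI vs. WT-tFCI, and their part in the zinc genes' results was not tested. The list includes *Cx3cr1*, the locus that carries CreER in miKO mice. It had 3290 to 4370 CPM in WT-Sham and 1050 to 1450 CPM in miKO-Sham. After tFCI it had 1450 to 1580 CPM in WT and 291 to 544 CPM in miKO. Its difference between genotypes, which enters the sums, cannot be told apart from the CreER allele itself. Of all pairs of replicates, miKO-Sham replicates 1 and 2 had the closest counts by chi-square per degree of freedom (2.82, against 3.65 to 76.6), though by Pearson correlation of log2 CPM (0.976) replicates 2 and 3 of WT-Sham (0.981) and of WT-tFCI (0.980) were closer. They were deposited under names with a common stem. The labels put them in batch 1 and batch 2. They differed by more than sampling noise and were kept apart, but they may come from the same cells. If they do, values within batch 1 and batch 2 that use miKO-Sham are not independent. Results that use miKO-Sham were also computed with the counts of these libraries summed. The miKO-Sham replicate 3 had 309 CPM of the 7 markers of border-associated macrophages, against 56.7 to 59.3 CPM in the other two. In bulk RNA, fewer cells of a type and less RNA per cell cannot be told apart.

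Both metallothioneins were higher in miKO-Sham than in WT-Sham, and both rose after stroke in WT mice. *Mt1* (ENSMUSG00000031765.8, chr8:94179082-94180327 of GRCm38, forward strand) and *Mt2* (ENSMUSG00000031762.7, chr8:94172664-94173568, forward strand) lie beside each other and encode the broadly expressed metallothioneins. *Mt1* stood at 120, 73.8 and 56.1 CPM in WT-Sham and at 741, 805 and 260 CPM in miKO-Sham. After tFCI it stood at 395, 342 and 304 CPM in WT and at 619, 533 and 542 CPM in miKO. Each miKO library was thus above each WT library of the same surgery, and WT-Sham was the lowest group by a wide gap.

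*Mt2* had a steeper pattern from a lower base. It stood at 2.16, 1.01 and 1.54 CPM in WT-Sham (18, 9 and 15 counts) and at 147, 165 and 30.7 CPM in miKO-Sham. In WT-tFCI it stood at 40.9, 31.6 and 27.2 CPM, and in miKO-tFCI at 125, 97.5 and 85.0 CPM. The miKO-Sham replicate 3 had far less of both metallothioneins than replicates 1 and 2, and was still above every WT-Sham library.

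**Figure D1:**
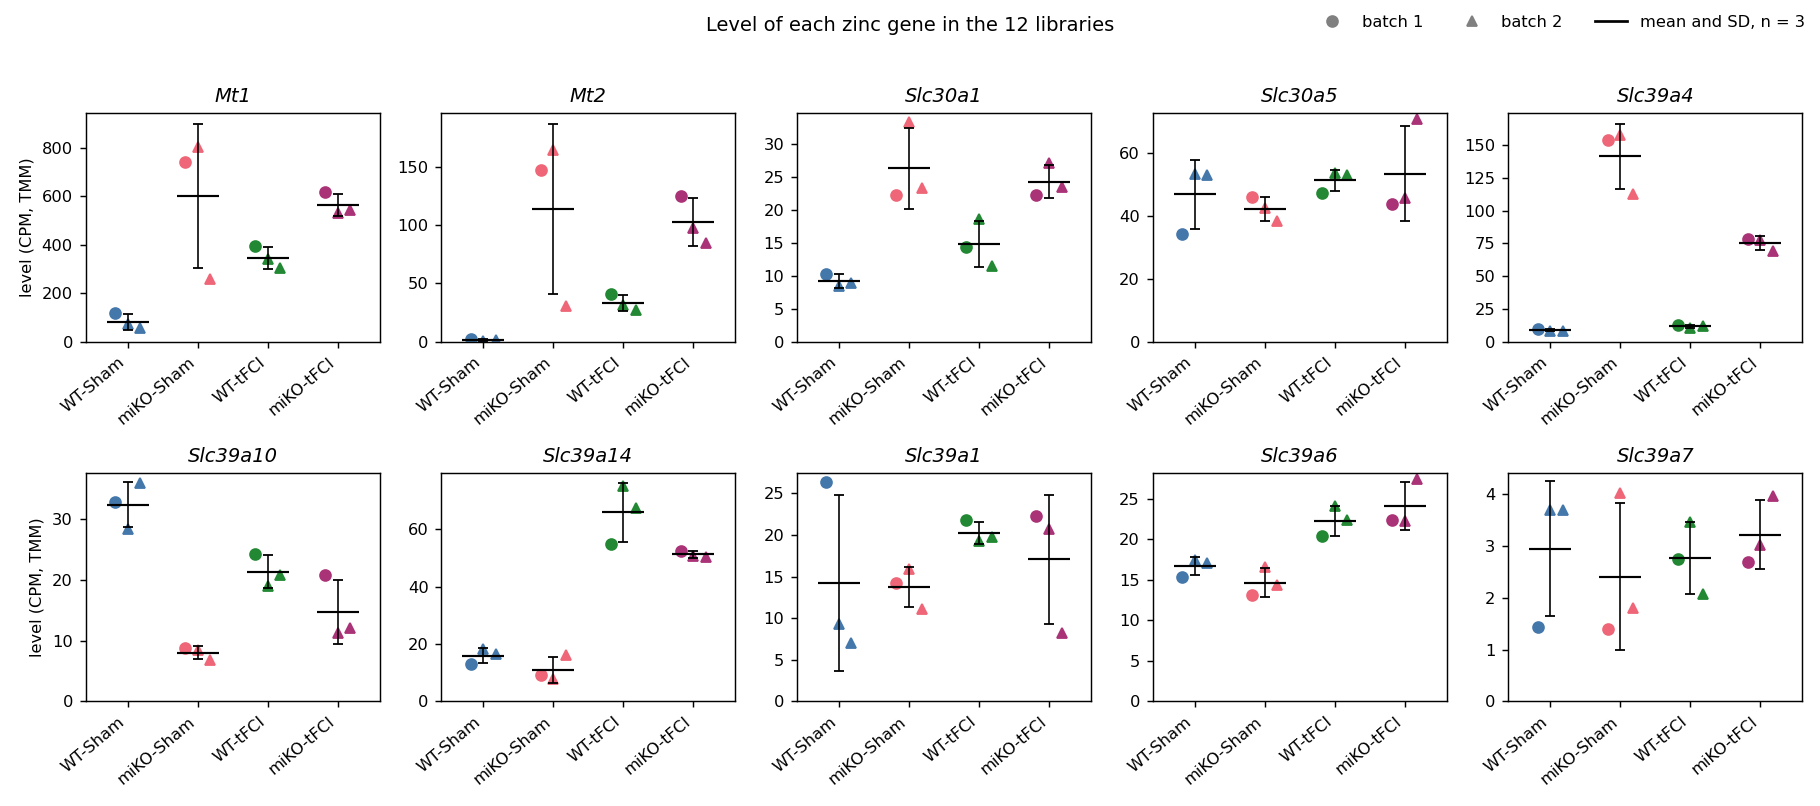
Level of each of the 10 genes (CPM on TMM-scaled library sizes, vertical axes from 0 and different in each panel) in the 4 groups, with a point per library, circles for batch 1, triangles for batch 2, and bars for the mean and SD (n = 3). *Mt1*, *Mt2*, *Slc30a1* and *Slc39a4* were higher in each miKO library than in each WT library of the same surgery, *Slc39a10* had its lowest levels in miKO-Sham, and *Slc39a14* was high in both tFCI groups.

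In miKO-Sham vs. WT-Sham, *Mt2* rose from 1.57 ± 0.578 to 114.1 ± 72.7 CPM (SD, n = 3 each), which was a log2 difference of 6.17 (SE 0.53, BH-adjusted p = 1.53e-06 in edgeR). *Mt1* rose from 83.3 ± 33.0 to 602 ± 298 CPM (SD, n = 3 each), which was a log2 difference of 2.88 (SE 0.31, BH-adjusted p = 1.3e-05 in edgeR). In batch 1 and batch 2 taken alone, the difference was 5.94 and 5.58 on the log2 scale for *Mt2* and 2.62 and 2.82 for *Mt1*. Without miKO-Sham replicate 2 the log2 fold changes were 5.48 and 2.41, and with replicates 1 and 2 summed they were 5.56 and 2.47, all still called.

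Stroke alone also raised both genes in WT mice. In WT-tFCI vs. WT-Sham, *Mt2* reached 33.2 ± 7.02 CPM (SD, n = 3), a log2 fold change of 4.40 (SE 0.53, BH-adjusted p = 1.63e-05 in edgeR). *Mt1* reached 347 ± 45.9 CPM (SD, n = 3), a log2 fold change of 2.10 (SE 0.30, BH-adjusted p = 8.53e-05 in edgeR). In miKO mice, the levels of *Mt1* after tFCI (565 ± 47.2 CPM, SD, n = 3) lay within the range of miKO-Sham, and those of *Mt2* (103 ± 20.6 CPM, SD, n = 3) did too. The log2 fold change in miKO-tFCI vs. miKO-Sham was -0.07 for *Mt1* (95% interval -0.69 to 0.54) and -0.14 for *Mt2* (-0.92 to 0.64). Both intervals reach past the fold threshold of 0.58 on at least the lower side, and the miKO-Sham libraries decided the sign. Without miKO-Sham replicate 2 the values were 0.42 and 0.59, and with replicates 1 and 2 summed 0.37 and 0.51, none called. Without miKO-Sham replicate 3, *Mt2* had a log2 fold change of -0.58 and was called lower (BH-adjusted p = 0.0158 in edgeR).

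After tFCI the genotypes lay closer together. In miKO-tFCI vs. WT-tFCI, *Mt2* was 3.09-fold higher, a log2 fold change of 1.63 (SE 0.38, BH-adjusted p = 0.0149 in edgeR), and was 1.61 in batch 1 and 1.63 in batch 2 alone. The call for *Mt2* was lost when any of the WT-tFCI libraries was left out (1.56, 1.70 and 1.58 without replicates 1, 2 and 3, BH-adjusted p from 0.052 to 0.071 in edgeR), although the difference hardly moved. It was also lost without the batch term (1.63, BH-adjusted p = 0.0578 in edgeR) and on batch 2 alone (1.59, BH-adjusted p = 0.0659 in edgeR). *Mt1* was 1.63-fold higher, a log2 fold change of 0.71 (SE 0.29) that did not pass the threshold (BH-adjusted p = 0.136 in edgeR). It was called without miKO-Sham replicate 2 or 3 (0.71 in both, BH-adjusted p = 0.047 and 0.023 in edgeR) and when only these 2 groups were fitted (0.70, BH-adjusted p = 0.00119 in edgeR). A fit with no filter on low counts called it too (0.68, BH-adjusted p = 0.00028 in edgeR).

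The genotype difference in miKO-tFCI vs. WT-tFCI minus that in miKO-Sham vs. WT-Sham, which is the interaction of genotype and surgery, was -4.54 for *Mt2* (SE 0.65, BH-adjusted p = 0.00137 in edgeR). For *Mt1* it was -2.17 (SE 0.41, BH-adjusted p = 0.00827 in edgeR). Both genes therefore differed more between genotypes after sham surgery than after stroke. The values within batch 1 and batch 2 were -4.33 and -3.96 for *Mt2* and -1.98 and -2.09 for *Mt1*.

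Sequences upstream of the annotated start were matched in RefSeq (GRCm38.p6) for 7 of the 10 genes. Those of *Mt1*, *Mt2* and *Slc30a1* are shown because these 3 genes are textbook targets of MTF1 and were called higher in miKO-Sham. Each window holds the 250 bases before the annotated start, 5′ to 3′ on the gene's strand, and capitals mark matches to the core of the metal response element, searched as TGCACNC and TGCGCNC on both strands with no other motif searched.
Mt1, chr8:94178839-94179088, forward strand: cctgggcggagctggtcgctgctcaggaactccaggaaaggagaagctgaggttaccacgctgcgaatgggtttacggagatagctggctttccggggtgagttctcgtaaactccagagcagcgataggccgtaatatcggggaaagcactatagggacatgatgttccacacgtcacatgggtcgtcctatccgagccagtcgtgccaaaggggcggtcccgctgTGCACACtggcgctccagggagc
Mt2, chr8:94172368-94172617, forward strand: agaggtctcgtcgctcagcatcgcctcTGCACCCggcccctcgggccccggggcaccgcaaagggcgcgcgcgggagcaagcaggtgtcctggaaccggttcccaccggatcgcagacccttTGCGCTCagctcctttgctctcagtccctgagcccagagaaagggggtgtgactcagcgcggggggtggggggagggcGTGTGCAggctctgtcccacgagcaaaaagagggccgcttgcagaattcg
Slc30a1, chr1:191906531-191906780, forward strand: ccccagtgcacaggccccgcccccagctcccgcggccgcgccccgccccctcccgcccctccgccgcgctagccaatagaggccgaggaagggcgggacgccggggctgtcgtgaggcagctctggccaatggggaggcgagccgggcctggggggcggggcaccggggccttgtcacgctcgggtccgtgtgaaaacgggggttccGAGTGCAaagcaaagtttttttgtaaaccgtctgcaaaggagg

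The *Mt2* window held 3 matches, from 223, 128 and 50 bases before the start, the last on the opposite strand. The *Mt1* window held 1 match, TGCACAC from 23 bases before the start, and the *Slc30a1* window held 1, on the opposite strand from 43 bases before it. Of all 32851 windows of this length in the table, 21.4% held at least 1 match and 1.26% held at least 3. With the 50 bases after the start added, the matches were 4 for *Mt2*, 3 for *Mt1* and 2 for *Slc30a1*, and 1.97% of all windows held at least 3. The number of matches thus depends on where the annotated start lies. Bases further downstream were not searched, so that these need not be all matches in the promoter of a gene. The window of *Slc30a5* held 1 match, and those of *Slc39a1*, *Slc39a7* and both starts of *Slc39a10* held 0. *Slc39a4*, *Slc39a6* and *Slc39a14* were not searched. A match describes the letters and does not show that MTF1 binds there.

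The counts of *Mt2* were joined by near-equal counts on *Gm45774*, a gene annotated on the opposite strand that shares 432 of the 588 exon bases of *Mt2*. In the 9 libraries outside WT-Sham, *Gm45774* had 0.839 to 1.16 times the counts of *Mt2*. In WT-Sham it had 18, 3 and 7 counts against 18, 9 and 15. The library kit does not mark the strand, so reads of *Mt2* and *Gm45774* cannot be told apart. *Gm45774* had nearly the same fold changes (6.78 in miKO-Sham vs. WT-Sham and 1.84 in miKO-tFCI vs. WT-tFCI), which are no independent support for those of *Mt2*. No gene overlaps *Mt1*.

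**Figure D2:**
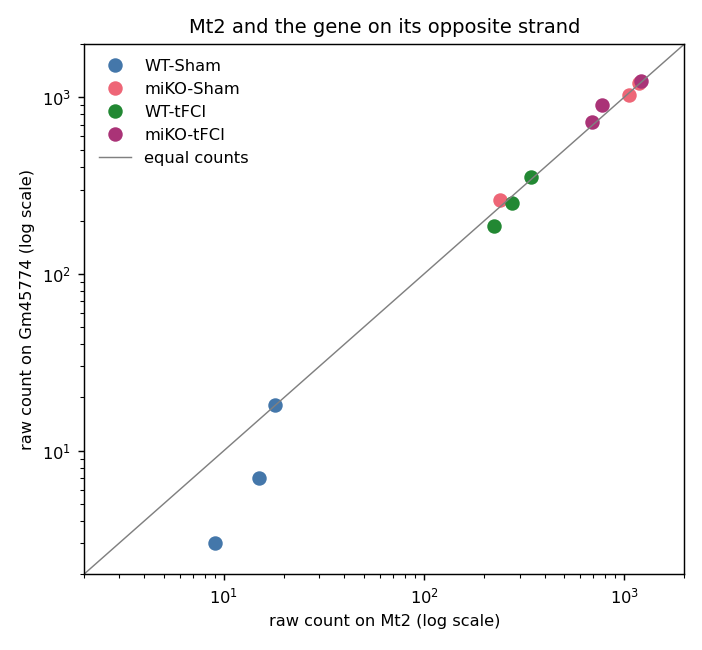
Raw counts on *Mt2* (horizontal, log scale) against raw counts on *Gm45774*, the gene on its opposite strand (vertical, log scale), with a point per library coloured by group and a line of equal counts. The 9 libraries outside WT-Sham lie along the line, between 223 and 1214 counts on *Mt2*.

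The exporter *Slc30a1* (ENSMUSG00000037434.7, chr1:191906767-191913247, forward strand) encodes ZnT1, which moves zinc out across the plasma membrane. Its levels were 10.3, 8.40 and 8.93 CPM in WT-Sham, 22.2, 33.4 and 23.3 CPM in miKO-Sham, 14.4, 18.6 and 11.6 CPM in WT-tFCI, with 22.3, 27.2 and 23.5 CPM in miKO-tFCI. Its group means followed the order of those of the metallothioneins, with WT-Sham lowest, WT-tFCI next and both miKO groups on top. For *Slc30a1* each miKO library was above each WT library, and the ranges of the miKO groups overlapped. For the metallothioneins, miKO-Sham replicate 3 was not above WT-tFCI. Its *Mt1* (260 CPM) was below each WT-tFCI library and its *Mt2* (30.7 CPM) lay within their range. In miKO-Sham vs. WT-Sham, *Slc30a1* rose by 1.51 on the log2 scale (SE 0.22, BH-adjusted p = 0.00019 in edgeR), and by 1.09 within batch 1 and 1.66 within batch 2.

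The other differences of *Slc30a1* were near the threshold. Its log2 fold change was 0.69 in WT-tFCI vs. WT-Sham (SE 0.22, BH-adjusted p = 0.0229 in edgeR). That call was lost without WT-Sham replicate 2 or 3 (0.56 and 0.60) and without WT-tFCI replicate 1 or 2 (0.68 and 0.44). In miKO-tFCI vs. WT-tFCI it was 0.71 (SE 0.21, BH-adjusted p = 0.0459 in edgeR), and the call was lost in 9 of 21 alternatives. Among these were leaving out any miKO-tFCI replicate (0.72, 0.64 and 0.75 without replicates 1, 2 and 3), WT-tFCI replicate 1 or 3 (0.68 and 0.54), or WT-Sham replicate 2 or 3 (both 0.70). Its interaction of -0.80 did not pass the threshold (BH-adjusted p = 0.176 in edgeR). The long RNA *1700034H15Rik* on the opposite strand shares 468 exon bases with *Slc30a1* and had at most 2.91 CPM in WT-Sham and 3.46 CPM in miKO-tFCI.

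*Slc30a5* (ENSMUSG00000021629.10, chr13:100802648-100833427, reverse strand) encodes ZnT5, which loads zinc into the early secretory pathway. It had 34.3 to 53.3 CPM in WT-Sham and 38.2 to 46.0 CPM in miKO-Sham, 47.3 to 53.4 CPM in WT-tFCI and 43.7 to 70.7 CPM in miKO-tFCI, and the ranges of WT and miKO overlapped after either surgery. None of its comparisons passed the threshold. Its log2 fold change in miKO-Sham vs. WT-Sham was -0.12 (95% interval -0.52 to 0.27).

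*Slc39a4* (ENSMUSG00000063354.7, chr15:76612383-76617384, reverse strand) encodes ZIP4, the importer that takes up dietary zinc in the intestine. It was at 10.1, 8.40 and 8.41 CPM in WT-Sham and at 154, 158 and 113 CPM in miKO-Sham. In WT-tFCI it was at 12.8, 10.5 and 12.3 CPM, and in miKO-tFCI at 78.6, 77.8 and 69.5 CPM. The genotypes were far apart after either surgery, with no WT library above 12.8 CPM and no miKO library below 69.5 CPM.

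The mean of *Slc39a4* was 15.8-fold higher in miKO-Sham (142 ± 24.8 CPM) than in WT-Sham (8.97 ± 0.9752 CPM, SD, n = 3 each). It was 6.34-fold higher in miKO-tFCI (75.3 ± 5.05 CPM) than in WT-tFCI (11.9 ± 1.21 CPM, SD, n = 3 each). Fitted log2 fold changes were 3.98 (SE 0.16) and 2.67 (SE 0.15), which placed the gene at rank 95 and rank 52 from the top of the 16451 tested genes. These are the values it was chosen for. In miKO mice the level after tFCI was lower than after sham surgery, by 0.91 on the log2 scale (SE 0.14), which is given as a value because it uses the same miKO libraries. In WT mice the log2 fold change after tFCI was 0.41 (SE 0.16), likewise given as a value because the WT libraries also entered the choice of the gene.

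The nearest annotated genes on either side of *Slc39a4* had smaller differences between genotypes. *Cpsf1*, a subunit of the complex that cleaves and polyadenylates mRNA, lies 4792 bases away and had log2 fold changes of 0.17 in miKO-Sham vs. WT-Sham and 0.12 in miKO-tFCI vs. WT-tFCI, neither called. *Vps28*, a subunit of the ESCRT sorting machinery, lies 4703 bases away on the other side. It rose by 0.69 in miKO-Sham vs. WT-Sham (BH-adjusted p = 0.00276 in edgeR) and had a log2 fold change of 0.00 in miKO-tFCI vs. WT-tFCI (95% interval -0.29 to 0.30). No annotated gene overlaps *Slc39a4*.

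*Slc39a10* (ENSMUSG00000025986.6, chr1:46807544-46892852, reverse strand) encodes ZIP10, an importer of the cell surface that MTF1 is known to repress. It went the opposite way to *Slc39a4*. Its levels were 32.9, 28.5 and 35.9 CPM in WT-Sham and 8.75, 8.46 and 6.79 CPM in miKO-Sham. After tFCI they were 24.3, 18.9 and 20.8 CPM in WT and 20.8, 11.3 and 12.1 CPM in miKO. The sham groups were far apart, whereas after tFCI a miKO library (replicate 1, from batch 1) lay within the WT range.

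In miKO-Sham vs. WT-Sham, *Slc39a10* fell by 2.03 on the log2 scale (SE 0.20, BH-adjusted p = 6.86e-06 in edgeR), by 1.88 within batch 1 and 2.04 within batch 2. In miKO-tFCI vs. WT-tFCI its log2 fold change of -0.56 (SE 0.19) did not pass the threshold (BH-adjusted p = 0.0827 in edgeR), and was -0.23 in batch 1 and -0.75 in batch 2 alone. Without miKO-tFCI replicate 1 it was -0.83 and was called (BH-adjusted p = 0.0187 in edgeR). The interaction was 1.47 (SE 0.28, BH-adjusted p = 0.00805 in edgeR), so that the deficit in miKO was smaller after stroke.

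With all libraries, *Slc39a10* was called lower after stroke in WT and higher in miKO. It fell by 0.62 on the log2 scale in WT-tFCI vs. WT-Sham (SE 0.19, BH-adjusted p = 0.0172 in edgeR) and rose by 0.86 in miKO-tFCI vs. miKO-Sham (SE 0.21, BH-adjusted p = 0.00393 in edgeR). The fall in WT was no longer called without WT-Sham replicate 3 (-0.50) or WT-tFCI replicate 1 (-0.59), or without the batch term (-0.60). The rise in miKO was no longer called without miKO-tFCI replicate 1 (0.56) or on batch 2 alone (0.59). That library, which had the highest *Slc39a10* of its group, also stood apart in cell type markers. Its summed levels were 10520 CPM for microglia (others 17060 and 20190), 651 CPM for astrocytes (others 225 and 247) and 988 CPM for monocytes and macrophages (others 444 and 510), and their part in the rise was not tested.

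*Slc39a14* (ENSMUSG00000022094.15, chr14:70303469-70351425, reverse strand) encodes ZIP14, which takes up zinc, manganese and iron that is not bound to transferrin, and is induced by inflammation in the liver. It had 12.98, 18.4 and 16.5 CPM in WT-Sham and 9.16, 7.63 and 16.1 CPM in miKO-Sham. After tFCI it had 54.8, 75.3 and 67.6 CPM in WT and 52.6, 50.8 and 50.4 CPM in miKO. Every tFCI library was above every Sham library, with the lowest tFCI level at 50.4 CPM and the highest Sham level at 18.4 CPM. The gene rose by 2.05 on the log2 scale in WT-tFCI vs. WT-Sham (SE 0.21, BH-adjusted p = 3.23e-06 in edgeR) and by 2.23 in miKO-tFCI vs. miKO-Sham (SE 0.22, BH-adjusted p = 2.47e-06 in edgeR). Its interaction of 0.19 (95% interval -0.44 to 0.81) did not pass the threshold. Between genotypes its log2 fold changes were -0.53 in the Sham groups and -0.35 in the tFCI groups, neither called. Without miKO-Sham replicate 3, the first was -0.88 and was called (BH-adjusted p = 0.00805 in edgeR).

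*Slc39a6* (ENSMUSG00000024270.11, chr18:24579881-24603817, reverse strand) encodes ZIP6, which forms a complex with ZIP10 at the cell surface. It had 15.4 to 17.5 CPM in WT-Sham and 13.1 to 16.5 CPM in miKO-Sham, 20.4 to 24.1 CPM in WT-tFCI and 22.2 to 27.4 CPM in miKO-tFCI. Both tFCI ranges lay above both Sham ranges. The log2 fold change was 0.72 in miKO-tFCI vs. miKO-Sham (SE 0.16, BH-adjusted p = 0.00201 in edgeR), which was called. In WT-tFCI vs. WT-Sham it was 0.42 (SE 0.15, BH-adjusted p = 0.0427 in edgeR), below the fold threshold of 0.58, and the interaction of 0.30 was not called. Between genotypes it was -0.19 (95% interval -0.52 to 0.15) in the Sham groups and 0.11 (-0.21 to 0.44) in the tFCI groups.

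*Slc39a1* (ENSMUSG00000052310.9, chr3:90248172-90253612, forward strand) encodes ZIP1, a broadly expressed importer. It had 26.3, 9.30 and 6.98 CPM in WT-Sham, 14.2, 16.0 and 11.1 CPM in miKO-Sham, 21.8, 19.3 and 19.7 CPM in WT-tFCI, with 22.3, 20.7 and 8.16 CPM in miKO-tFCI. The WT-Sham libraries of batch 1 and batch 2 lay further apart than the group means did. No comparison of *Slc39a1* passed the threshold. In WT-tFCI vs. WT-Sham its log2 fold change was 0.66 (SE 0.35), with -0.27 within batch 1 and 1.25 within batch 2, and without WT-Sham replicate 1 it was 1.19 and was called (BH-adjusted p = 0.0171 in edgeR). It was also called on batch 2 alone (1.27, BH-adjusted p = 0.018 in edgeR) and with all libraries but no filter on low counts (0.64, BH-adjusted p = 0.0332 in edgeR).

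*Slc39a7* (ENSMUSG00000024327.16, chr17:34028269-34031682, reverse strand) encodes ZIP7, which releases zinc from the endoplasmic reticulum. Its counts were 10 to 36 per library. Of its 2584 exon bases, 2084 are shared with *Gm20427* on the same strand, and reads that lie in both genes may be counted for neither, so that its level is uncertain. It had 1.44 to 3.70 CPM in WT-Sham and 1.39 to 4.02 CPM in miKO-Sham, 2.07 to 3.46 CPM in WT-tFCI and 2.68 to 3.95 CPM in miKO-tFCI. At this depth no difference was detectable, and the 95% interval in miKO-Sham vs. WT-Sham ran from -1.24 to 0.68.

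Of the 9 genes other than *Slc39a4*, 4 were called higher after stroke in WT mice (*Mt1*, *Mt2*, *Slc30a1* and *Slc39a14*). *Slc39a10* was called lower, and the rest were not called. Of all genes tested, 32.6% were called in this comparison, 20.9% higher and 11.7% lower. In miKO-tFCI vs. miKO-Sham, 3 of the 9 genes tested other than *Slc39a4* were higher (*Slc39a6*, *Slc39a10* and *Slc39a14*) and 0 lower, against 21.9% and 13.9% of all genes (35.8% in all). In miKO-Sham vs. WT-Sham, 3 of 9 were higher (*Mt1*, *Mt2* and *Slc30a1*) and 1 lower (*Slc39a10*), against 8.58% and 6.8% of all genes (15.4% in all). In miKO-tFCI vs. WT-tFCI, 2 of 9 were higher (*Mt2* and *Slc30a1*) and 0 lower, against 4.08% and 4.71% of all genes (8.79% in all). In the interaction, 1 of 9 was higher (*Slc39a10*) and 2 lower (*Mt1* and *Mt2*), against 1.25% and 2.57% of all genes (3.82% in all). With 9 genes these counts describe the list and set it apart from no other. The comparisons share libraries, so that their counts are not independent.

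**Figure D3:**
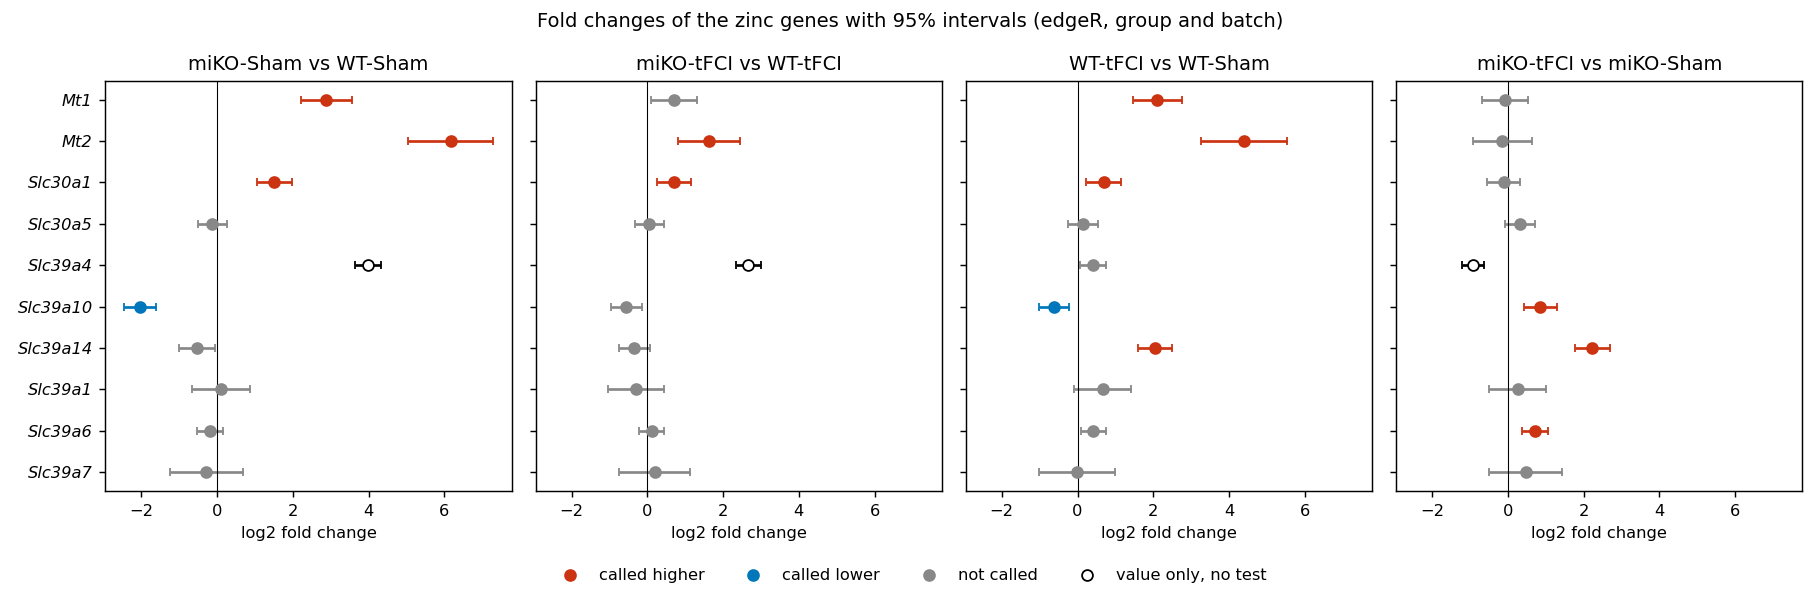
Log2 fold change (horizontal) of each of the 10 genes in the 4 comparisons between groups, with 95% intervals from edgeR's quasi-likelihood fit of group and batch. Red marks genes called higher, blue called lower, grey not called, and open points *Slc39a4*, given without a test. In WT-tFCI vs. WT-Sham *Slc39a4* is drawn grey, though its value there is given without a test too. *Mt2* has the largest value, 6.17 in miKO-Sham vs. WT-Sham, and *Slc39a10* the lowest, -2.03 in the same comparison.

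Levels between genes were compared per kilobase of annotated exon (RPKM), leaving out *Slc39a7*. In WT-Sham, *Mt1* led with a mean of 66.9 RPKM. It was followed by *Slc30a5* (6.42), *Slc39a1* (6.01), *Slc39a10* (5.32), *Slc39a6* (4.08), *Slc39a4* (2.89), *Mt2* (2.67), *Slc30a1* (1.76) and *Slc39a14* (1.51 RPKM). In that order the ranges of *Slc30a5*, *Slc39a1* and *Slc39a10* overlapped, as did those of neighbours from *Slc39a4* to *Slc39a14*. In miKO-Sham the first 3 places went to *Mt1* (483 RPKM), *Mt2* (194 RPKM) and *Slc39a4* (45.6 RPKM), and among the importers of the 10 genes *Slc39a4* was followed by *Slc39a1* with 5.82 RPKM. The place of *Mt2* is uncertain, since 432 of its 588 exon bases are shared with *Gm45774*. The exon length used for *Mt1* was 1246 bases and includes forms that keep its introns, which lowers its value per length.

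The wider list of zinc handling genes held 30 symbols (14 ZIP importers, 10 ZnT exporters, 4 metallothioneins, *Mtf1* and *Tmem163*), of which 24 passed the filter on low counts. Of the 14 of these that are not among the 10 genes above, 2 were called higher and 1 lower in WT-tFCI vs. WT-Sham, 1 higher in miKO-tFCI vs. miKO-Sham, 2 higher in miKO-Sham vs. WT-Sham, and 1 higher and 1 lower in miKO-tFCI vs. WT-tFCI. Of all genes tested, 32.6%, 35.8%, 15.4% and 8.79% were called in these comparisons, in the same order. The median log2 fold change of the 24 genes was -0.08 in miKO-Sham vs. WT-Sham and 0.17 in miKO-tFCI vs. WT-tFCI, against 0.04 for all genes tested in both. Of the 23 genes counted in each genotype comparison, 17 and 19 were not called. *Mtf1*, the zinc sensor itself, was among them, with 25.7 to 36.7 CPM over all libraries and log2 fold changes from 0.05 to 0.11 in the 4 comparisons. *Slc39a5*, *Slc30a2*, *Slc30a3*, *Slc30a8*, *Slc30a10* and *Mt4* did not pass the filter.

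**Figure D4:**
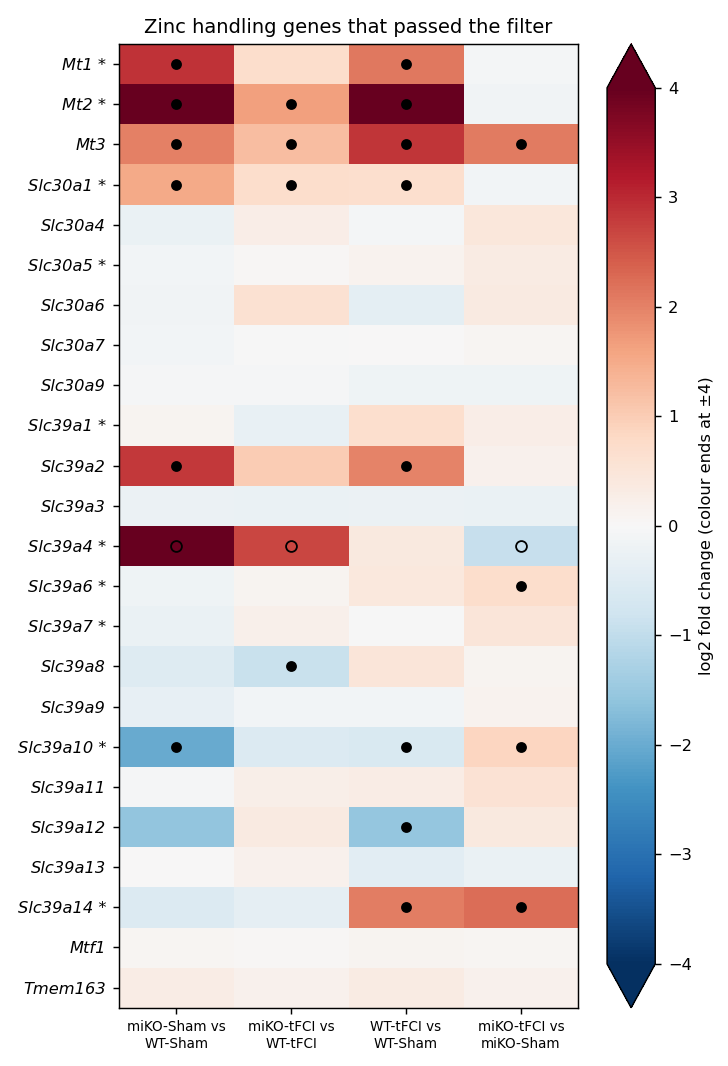
Log2 fold change (colour, ending at ±4) of the 24 zinc handling genes that passed the filter, in the 4 comparisons between groups. Filled dots mark called genes, open circles *Slc39a4*, given without a test (no mark in WT-tFCI vs. WT-Sham), and asterisks the 10 genes of the report. *Mt2*, at 6.17 and 4.40, and *Slc39a4*, at 3.98, lie at or near the end of the scale, and most other importers and exporters are pale.

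Of the wider list, *Slc39a2*, which encodes the importer ZIP2, was low and had 0.84, 0.67 and 0.72 CPM in WT-Sham and 6.11, 5.69 and 3.97 CPM in miKO-Sham. It had 2.27, 3.58 and 3.17 CPM in WT-tFCI, with 3.20, 7.16 and 8.40 CPM in miKO-tFCI. It rose by 2.82 on the log2 scale in miKO-Sham vs. WT-Sham (SE 0.45, BH-adjusted p = 0.000438 in edgeR) and by 1.98 in WT-tFCI vs. WT-Sham (SE 0.46, BH-adjusted p = 0.00341 in edgeR). *Slc39a8* encodes ZIP8, the closest relative of ZIP14, and fell by 0.89 in miKO-tFCI vs. WT-tFCI, from 21.1 ± 1.79 to 11.6 ± 3.11 CPM (SD, n = 3 each, BH-adjusted p = 0.0153 in edgeR). *Slc39a12*, which encodes the brain importer ZIP12, fell by 1.54 in WT-tFCI vs. WT-Sham (BH-adjusted p = 0.0423 in edgeR). Its levels were 10.6 to 16.7 CPM in WT-Sham and 3.33 to 6.94 CPM in miKO-Sham and 2.66 to 6.94 CPM in WT-tFCI, and it spread from 1.63 to 15.9 CPM in miKO-tFCI.

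*Mt3*, the metallothionein of neurons and astrocytes, lies 18518 bases from *Mt2* and was called higher in all 4 comparisons. It had 6.61, 1.46 and 1.44 CPM in WT-Sham, 13.6, 11.5 and 4.10 CPM in miKO-Sham, 66.1, 8.195 and 8.04 CPM in WT-tFCI, with 153, 22.9 and 16.8 CPM in miKO-tFCI. The batch 1 library was the highest in each group, by far in both tFCI groups. In the tFCI groups these libraries also led in the astrocyte marker *Gfap*, at 79.4 CPM in WT-tFCI replicate 1 (others 29.1 and 30.6) and 251 CPM in miKO-tFCI replicate 1 (others 88.1 and 88.5). In the Sham groups they did not, with *Gfap* at 0.12 CPM in WT-Sham replicate 1 (others 0.448 and 0.41) and 1.11 CPM in miKO-Sham replicate 1 (others 1.11 and 2.82). The astrocyte marker *Slc1a3* was lowest in WT-tFCI replicate 1 (99.9 CPM, others 120 and 114) and highest in miKO-tFCI replicate 1 (86.1 CPM, others 53.4 and 61.7). In miKO-Sham vs. WT-Sham, *Mt3* had a log2 fold change of 2.01 (BH-adjusted p = 0.0106 in edgeR). In miKO-tFCI vs. WT-tFCI it had 1.23 (BH-adjusted p = 0.0494 in edgeR), at the edge of the threshold. Alternatives were not computed for *Mt3*.

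The levels of other cell types' markers were set beside these results. Summed over 8 astrocyte markers, they were 183 to 198 CPM in WT-Sham and 119 to 144 CPM in miKO-Sham, of which *Slc1a3* made up most. In miKO-Sham vs. WT-Sham, 2 of the 8 were called higher and 1 lower, and their median log2 fold change was 1.04. *Gfap* had 0.12 to 0.448 CPM in WT-Sham and 1.11 to 2.82 CPM in miKO-Sham, whereas *Slc1a3* had 174 to 184 CPM and 96.3 to 117 CPM. After tFCI the sums were 172 to 309 CPM in WT and 225 to 651 CPM in miKO, and 3 of 8 were called higher and 1 lower in miKO-tFCI vs. WT-tFCI. In WT-tFCI vs. WT-Sham, in which *Mt1* and *Mt2* rose, 4 of 8 were called higher and 1 lower. No astrocyte marker was at 0 in any library. The 7 neuron markers summed to 1.95 to 2.89 CPM in WT-Sham and 11.4 to 16.1 CPM in miKO-Sham, where *Rbfox3* alone had 9.09 to 14.8 CPM and *Syt1* and *Slc17a7* were at 0. The 9 markers of monocytes and macrophages summed to 13.6 to 91.6 CPM in WT-Sham and 55.4 to 115 CPM in miKO-Sham, 377 to 664 CPM in WT-tFCI and 444 to 988 CPM in miKO-tFCI. Of these, 0 of 9 were called in miKO-Sham vs. WT-Sham and 2 higher in miKO-tFCI vs. WT-tFCI, while 4 were higher in WT-tFCI vs. WT-Sham. At most 2 of the 9 were at 0 in a library, *Ly6c2*, *Vcan* and *F10* among those at 0 somewhere. The 9 neutrophil markers summed to 637 to 1359 CPM in WT-Sham and 1097 to 1134 CPM in miKO-Sham, 490.4 to 587 CPM in WT-tFCI and 918 to 1259 CPM in miKO-tFCI, and 6 of 9 were called higher in miKO-tFCI vs. WT-tFCI. The 7 markers of border-associated macrophages summed to 143 to 250 CPM in WT-tFCI and 254 to 749 CPM in miKO-tFCI, and 2 of 7 were called higher there. Of the 7 endothelial markers, 5 were called higher after stroke in WT and 7 in miKO, and they summed to 12.3 to 30.7 CPM in the Sham groups and 62.6 to 292 CPM in the tFCI groups. The 7 oligodendrocyte markers summed to 150 to 291 CPM over all libraries, of which *Cnp* alone had 73.3 to 129 CPM. Of the 6 tested, 4 were called higher after stroke in each genotype, and 1 was called lower in WT and 0 in miKO. The 6 B cell markers summed to 151 to 513 CPM, of which *Ighm* alone had 134 to 482 CPM. *Ms4a1* and *Pax5* were each at 0 in 7 libraries. The 6 T cell markers summed to 1.10 to 7.74 CPM. The part of these cells in the differences of the zinc genes was not tested.

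Among themselves, *Mt1* and *Mt2* had the most similar levels across the 12 libraries (Pearson r = 0.987 on log2 CPM with the batch removed), followed by *Slc30a1* with each of them (0.911 with *Mt1* and 0.92 with *Mt2*). *Slc39a4* had r = 0.897 with *Slc30a1*, 0.767 with *Mt1*, 0.797 with *Mt2* and -0.924 with *Slc39a10*. These values describe 12 libraries in 4 groups and rest mainly on differences between the groups. Over all genes tested, the 5 with the pattern closest to *Slc39a4* were *Ninj1* (0.990), a protein of plasma membrane rupture, *Tnfaip2* (0.986), a gene induced by TNF, *Osgin1* (0.983), a gene induced by oxidative stress, *Gm40578* (0.978) and *Gm48876* (0.978). *Ninj1* was at 160, 118 and 113 CPM in WT-Sham and at 632, 632 and 468 CPM in miKO-Sham. It was at 164, 172 and 157 CPM in WT-tFCI and at 377, 445 and 407 CPM in miKO-tFCI, so that miKO-Sham was highest and miKO-tFCI next, as for *Slc39a4*.

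For *Mt2*, the closest genes after *Gm45774* (r = 0.996 over the 12 libraries) and *Mt1* were *Gsto1* (0.985), a glutathione transferase, *Plaur* (0.982), the urokinase receptor, and *Cst7* (0.982), a cystatin of activated microglia. *Cst7* was at 11.8, 8.85 and 13.6 CPM in WT-Sham, 393, 394 and 197 CPM in miKO-Sham, 213, 258 and 237 CPM in WT-tFCI, with 416, 537 and 549 CPM in miKO-tFCI. For *Mt1*, after *Mt2* and *Gm45774*, they were *Naa20* (0.977), a subunit of an N-terminal acetyltransferase, *Atox1* (0.974), a copper chaperone, and *Gm45236* (0.973). *Atox1* was at 118, 50.0 and 46.5 CPM in WT-Sham, 232, 226 and 109 CPM in miKO-Sham, 208, 157 and 133 CPM in WT-tFCI, with 302, 190.0 and 158 CPM in miKO-tFCI.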

How the data were processed

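RNA from sorted microglia was made into SMART-Seq v4 libraries, sequenced and counted per gene by the authors. The submitters' processing notes name FastQC 0.11.9, Trim Galore, HISAT2 2.2.1, SAMtools and HTSeq 1.99.2 with the mouse builds mm10 and GRCm38.p6, and the strand setting of the counting is not given in the sources used here. The deposited values were raw counts per gene and library. The special rows for reads on no gene or on several were left out of library sizes and tests. Of all reads in the tables, 30.7% to 38.5% were on genes and 45.3% to 52.5% on no gene. GENCODE M21 gave names and positions for 55141 of the 55401 identifiers.

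Groups were taken from the labels, with 3 libraries each. Replicate 1 of each group was batch 1 and replicates 2 and 3 batch 2. The study's methods call the libraries of a group biological replicates, each a pool over several hemispheres, so that p-values measure the spread between pools. Levels are CPM on library sizes scaled by TMM. Differences were fitted with edgeR 4.0.16 (R 4.3.3, quasi-likelihood test, group and batch as terms, all 12 libraries, genes filtered by edgeR's filterByExpr). A gene was called at a Benjamini-Hochberg adjusted p below 0.05 over all 16451 genes tested and an absolute log2 fold change above 0.58. Intervals are 95% intervals of the fit. Same-numbered libraries were compared by the correlation of their deviations from the group means. In WT-tFCI and miKO-tFCI all 3 pairs were above 0.1 (0.666, 0.334 and 0.324), the highest being that of replicate 1, from batch 1. Deviations from a mean of 3 libraries sum to 0, so that a shift shared by batch 1 would also raise the other pairs. Pairing by number can thus not be told apart from batch. Over all groups 11 of 18 pairs were above 0.1 and 7 of 12 libraries were closest to their own number. Scripts were tested on simulated data. Alternatives were RLE size factors, DESeq2 1.42.0, other filters (none, or at least 10 counts in every library), fits without batch, with a replicate block, on batch 2 alone, on the groups compared alone or with miKO-Sham replicates 1 and 2 summed, and leaving out each library.

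The named genes are the 10 genes, the members of the wider list that were called, *Hdac3*, genes beside or overlapping the 10, cell type markers whose level moved with a result, and the 5 genes with the highest Pearson correlation to *Slc39a4*, *Mt1* and *Mt2*. The members, the lists and the tests were chosen with earlier results of these data known.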

Additional observations from a re-analysis of the deposited data

Results flagged for a closer look

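The genotype difference itself differed between sham surgery and stroke for 3 of the 9 genes tested, by the interaction term in edgeR with Benjamini-Hochberg adjustment. Of all genes tested, 3.82% were called by this term. For *Mt2* the difference after tFCI minus that after sham surgery was -4.54 on the log2 scale (adjusted p = 0.00137), and the count on its opposite strand cannot be told apart from its own. For *Mt1* it was -2.17 (adjusted p = 0.00827). For *Slc39a10* it was 1.47 (adjusted p = 0.00805). All 3 had the same sign within each batch, though batch 1 holds 1 library of each group and the batches may share miKO-Sham cells. No group had more than 3 libraries, so that single libraries were not searched for outliers.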

How the results depend on the processing

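Of 1035 values of the 10 genes recomputed under an alternative, 977 kept their direction and their side of the threshold, 11 passed it only under the alternative, 23 no longer passed it and 24 changed sign. Values of *Slc39a4* that use miKO libraries had no test. They are among the 977 because they kept their direction and moved little against their SE. The interactions of *Mt1*, *Mt2* and *Slc39a10* were called under each alternative in which the gene was tested. Among the 9 genes other than *Slc39a4*, the number called ranged from 3 to 6 in WT-tFCI vs. WT-Sham and from 0 to 3 in miKO-tFCI vs. WT-tFCI when a library was left out. In miKO-tFCI vs. WT-tFCI it was 1 with at least 10 counts in every library, which drops *Mt2*, 0 without the batch term and 1 on batch 2 alone, where the call was the lower level of *Slc39a10* and neither *Mt2* nor *Slc30a1* was called. Over all genes, miKO-tFCI vs. WT-tFCI had 1446 calls, against 2193 without a filter, 701 without the batch term, 2535 on the groups compared alone and 616 to 1667 with a library left out. The interaction had 629 calls, against 966 with DESeq2, 1272 without a filter, 303 without the batch term and 281 to 883 with a library left out. In miKO-tFCI vs. miKO-Sham, 5887 calls became 3744 with at least 10 counts in every library, which tests fewer genes. For the other shifts the cause was not tested.

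With a replicate block in place of batch, 2490 genes were called in miKO-Sham vs. WT-Sham and 1429 in miKO-tFCI vs. WT-tFCI. Among the 9 genes other than *Slc39a4*, the number called was the same in each comparison, and no call of these genes changed. In miKO-tFCI vs. miKO-Sham, *Mt1* then had 0.0207 and *Mt2* 0.0168. The other changes of sign were in values that were not called. With miKO-Sham replicates 1 and 2 summed, *Mt1* and *Mt2* had 0.37 and 0.51 in miKO-tFCI vs. miKO-Sham, and *Slc39a1* had -0.0943 in miKO-Sham vs. WT-Sham, where it had -0.0413 without the batch term. With a library left out, values ranged *Slc39a7* from -0.30 to 0.23 and *Slc30a5* from -0.0401 to 0.17 in WT-tFCI vs. WT-Sham, *Slc39a1* from -0.14 to 0.53 and *Slc30a1* from -0.22 to 0.0843 and *Mt1* from -0.42 to 0.42 and *Mt2* from -0.58 to 0.59 in miKO-tFCI vs. miKO-Sham, *Slc39a1* from -0.20 to 0.65 and *Slc30a5* from -0.32 to 0.00353 in miKO-Sham vs. WT-Sham, *Slc39a7* from -0.0705 to 0.46 and *Slc30a5* from -0.17 to 0.19 in miKO-tFCI vs. WT-tFCI, *Slc39a14* from -0.0540 to 0.53 and *Slc30a5* from -0.0239 to 0.37 in the interaction.

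Counting depth limits *Slc39a7*, with 10 to 36 counts, and *Mt2* in WT-Sham, with 9 to 18 counts. With 3 libraries a group and 1 library of each group in batch 1, a single library can end a call.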
